A study of Drosophila melanogaster with 6 samples.

Results

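Enzymes that make glucose from smaller molecules, or that break down amino acids, were followed in the heads of male Drosophila melanogaster kept alone or in company. The 8 genes named for this purpose were Pepck1, Pepck2, fbp, Gnmt, Bcat, Hn, hgo and Oat. A probe set stood for a gene only where the platform annotation gave it that symbol and no other, which left 7 of the 8 genes with 1 probe set each, out of 9604 genes tested in the series. Hn, which encodes phenylalanine hydroxylase, was not analysed here. The genes were chosen from the difference between the housing groups on these same arrays, so their differences between the groups are given as a description, without a test, and support nothing further.

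The study set single-housed males, 1 fly per vial for 6 days after eclosion, against group-housed males, 10 flies per vial for 6 days. Heads were taken from frozen flies in the late afternoon, and RNA from 20 pooled heads went onto each 1-colour Affymetrix array, with 3 arrays per group that the series describes as biological replicates. The labels name no strain, genotype or transgene. Because a sample is a pool of whole heads, fewer cells of a type and less RNA per cell cannot be told apart.

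Gluconeogenesis runs glycolysis backwards to yield glucose, and in insects it feeds the synthesis of trehalose, the blood sugar. Phosphoenolpyruvate carboxykinase and fructose-1,6-bisphosphatase catalyse steps that glycolysis cannot run in reverse. Amino acids supply carbon for this route once their nitrogen has been removed, and in insects much of this work is done by the fat body, a tissue with liver-like and adipose functions that is also present in the head.

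Signals are given as normalized log2 values, which are log2(intensity + 16) after quantile normalization of the arrays, unless deposited intensities are named. Differences are single-housed minus group-housed on the same log2 scale, with the standard error (SE) of the fit and 3 arrays per group. Levels of different probe sets were not compared with each other, except where marker signals were summed and the brightest gut marker was named. Median deposited intensities ran from 24.2 to 31.6 over the arrays, and correlations between normalized arrays from 0.972 to 0.989 across probe sets. As a check of the tissue, the photoreceptor gene Arr1 averaged 12.83 ± 0.087 (SD, n = 3) in single-housed heads, against 12.88 ± 0.06 (SD, n = 3) in group-housed heads. Of 11 male accessory gland and testis genes on the array 5 lay below the filter on dim probe sets and 6 passed it. The filter removed 30% of all probe sets, so this count says little about the tissue.

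Of the 7 genes, 6 were higher in value in single-housed heads and 1, hgo, was not. The median difference over the 7 was 0.61, beside -0.02 over all 9604 genes. For Pepck1, Pepck2, fbp and Bcat the lowest single-housed array lay above the highest group-housed array. Such separation was seen for 6.79% of all genes tested in that direction and for 8.54% in the other. Since the genes were chosen on this contrast, nothing is read from their share. On all 7 the highest group-housed array was replicate 2.

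Pepck2 encodes a phosphoenolpyruvate carboxykinase, the enzyme that turns oxaloacetate into phosphoenolpyruvate. Its deposited intensities were 290.0, 384.4 and 188.6 in single-housed heads, against 48.7, 73.5 and 59.3 in group-housed heads. After normalization the values were 8.07, 8.52 and 7.77 in single-housed heads and 6.03, 6.67 and 6.18 in group-housed heads. The lowest single-housed array stood 1.10 above the highest group-housed array, the widest such gap among the 7 genes. The difference was 1.83 (SE 0.21), a 3.55-fold higher signal. Because the group-housed intensities were low, the size depended on the added intensity, with 2.06 for a pseudocount of 1 and 1.37 for a pseudocount of 64.

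Pepck1 encodes the second phosphoenolpyruvate carboxykinase and lies close to Pepck2 on chromosome arm 2R, with 1 other protein-coding gene starting between them in the annotation of assembly Release 6 plus ISO1 MT. Its deposited intensities were 5981, 6341.4 and 5123.2 in single-housed heads, against 2997.8, 4545 and 2615.8 in group-housed heads. The normalized values were 12.40, 12.47 and 12.36 in single-housed heads, against 11.56, 12.33 and 11.49 in group-housed heads. The single-housed arrays thus sat within a narrow band (SD 0.051), and group-housed replicate 2 lay just under it while replicates 1 and 3 lay well below. The gap between the groups was 0.039, and the difference was 0.62 (SE 0.19), or 1.53-fold. Without group-housed replicate 2 the difference was 0.88, or 1.84-fold.

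The gene fbp encodes fructose-1,6-bisphosphatase, which removes a phosphate from fructose-1,6-bisphosphate. Its normalized values were 9.97, 10.37 and 10.14 in single-housed heads, against 9.63, 9.92 and 9.38 in group-housed heads. The groups were separated by 0.047, with a difference of 0.52 (SE 0.15), or 1.43-fold. It lay at 0.39 without group-housed replicate 3 and at 0.65 without group-housed replicate 2.

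**Figure D1:**
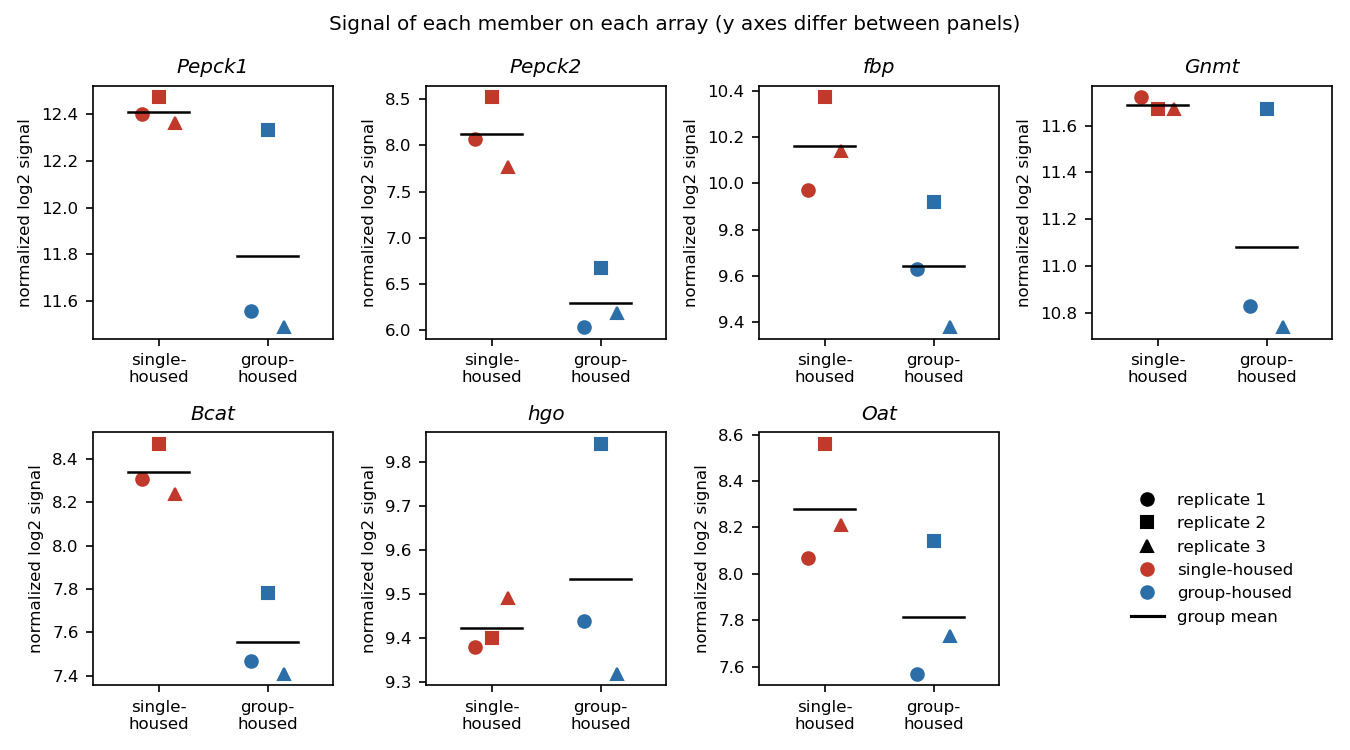
Normalized log2 signal of the 7 genes on each of the 6 arrays, single-housed to the left of group-housed, with circles, squares and triangles for replicates 1, 2 and 3 and a line at each group mean. Group-housed replicate 2 is the highest group-housed array in every panel, and for hgo it is the highest of all arrays at 9.84.

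Among the enzymes of amino acid metabolism, Bcat, a branched-chain amino acid aminotransferase, had values of 8.31, 8.47 and 8.24 in single-housed heads, against 7.47, 7.78 and 7.41 in group-housed heads. The groups were clearly apart, with a gap of 0.46. The difference was 0.79 (SE 0.12), or 1.73-fold. Over the alternatives it was lowest at a pseudocount of 64, with 0.66, and highest at 0.92 in the deposited scaling.

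Gnmt encodes glycine N-methyltransferase, which moves a methyl group from S-adenosylmethionine onto glycine and in the fly is known as a regulator of S-adenosylmethionine in the fat body. Its deposited intensities were 3823.7, 3734.5 and 3114.7 in single-housed heads, against 1782.8, 2869.6 and 1612.6 in group-housed heads. As deposited, the groups did not overlap. The normalized values were 11.72, 11.67 and 11.67 in single-housed heads, against 10.83, 11.67 and 10.74 in group-housed heads. After normalization group-housed replicate 2 stood 0.003 above the lowest single-housed array, so the groups touched, while the other group-housed arrays were far lower. The difference was 0.61 (SE 0.21), or 1.52-fold, and 0.90, or 1.86-fold, without that array.

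Oat encodes ornithine aminotransferase, which links ornithine to glutamate and proline. Its values were 8.07, 8.56 and 8.21 in single-housed heads, against 7.57, 8.14 and 7.73 in group-housed heads. Here group-housed replicate 2 exceeded the lowest single-housed array by 0.075. The difference was 0.46 (SE 0.17), or 1.38-fold, and it was lowest without single-housed replicate 2, at 0.32.

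The gene hgo encodes homogentisate 1,2-dioxygenase, an enzyme of tyrosine breakdown. Its values were 9.38, 9.40 and 9.49 in single-housed heads, against 9.44, 9.84 and 9.32 in group-housed heads. Group-housed replicate 2 was the highest of all 6 arrays while replicate 1 lay among the single-housed arrays and replicate 3 below them. The difference was -0.11 (SE 0.13), and its sign turned with the deposited scaling (0.063) and without group-housed replicate 2 (0.043). No direction is therefore given for hgo.

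**Figure D2:**
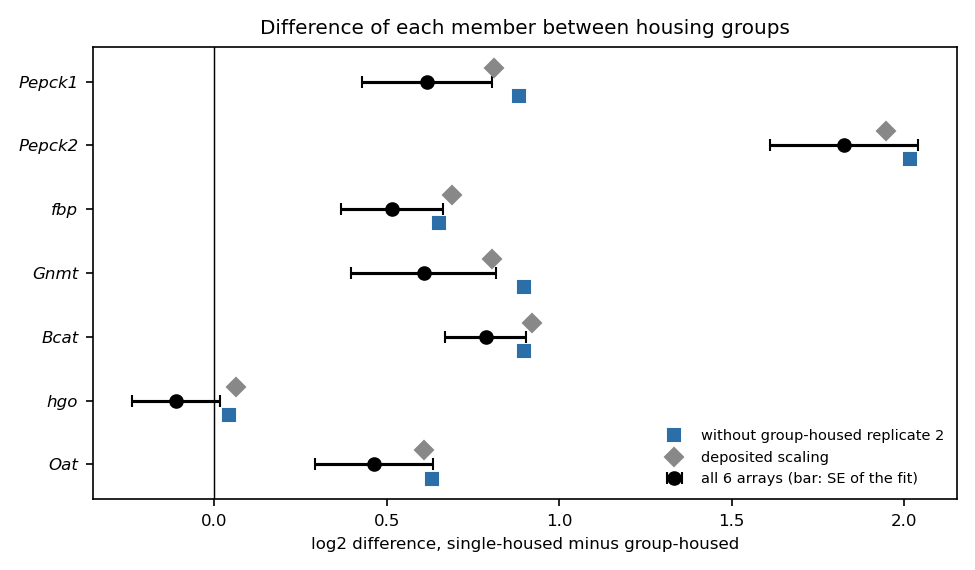
Log2 difference of each of the 7 genes, single-housed minus group-housed, from all 6 arrays (circles, bars are the SE of the fit), without group-housed replicate 2 (squares) and with the deposited scaling (diamonds). Without that array each of the 7 differences is higher, from 0.043 for hgo to 2.02 for Pepck2.

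Group-housed replicate 2 was followed further, since it was the array on which these genes departed most from their group. It stood above the group-housed mean for 7 of 7 genes, by 0.22 for Bcat to 0.59 for Gnmt. Group-housed replicates 1 and 3 stood below the mean for 7 of 7. Of all probe sets tested, 48.4%, 50.3% and 50.2% lay above the group-housed mean on replicates 1, 2 and 3. Over all 13138 probe sets tested, 33.3% had their highest group-housed value on replicate 2, and among the 819 probe sets whose single-housed arrays all lay above the group-housed ones the share was 48.2%. The pattern was also present in the deposited intensities, where replicate 2 was again the highest group-housed array for 7 of 7 genes.

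The distance that replicate 2 covered from the mean of group-housed replicates 1 and 3 toward the single-housed mean differed between the genes. It was 98.5% for Gnmt and 90.6% for Pepck1. Oat followed with 78.1% and fbp with 63.4%. Bcat and Pepck2 remained nearer to the other group-housed arrays, with 37.3% and 27.7%. For hgo such a share cannot be read, because its single-housed mean lay only 0.043 above the mean of group-housed replicates 1 and 3.

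Pepck1 and Gnmt accordingly had nearly the same profile. Their Pearson correlation over the 6 arrays was 0.994, and the log2 distance between the pair varied by an SD of 0.053 over the arrays. Of the other 9603 genes tested, Pepck1 was the one that correlated best with Gnmt, and Gnmt ranked 5 among the genes most like Pepck1. Pepck2 and Bcat formed a second pair, with a correlation of 0.991. Bcat ranked 2 for Pepck2, and Pepck2 ranked 4 for Bcat. The neighbours Pepck1 and Pepck2 correlated at 0.859. All of these points share the 6 arrays and the difference between the housing groups, so the correlations are descriptions.

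With that difference removed, by taking each array as a deviation from its own group mean, all 21 pairs of the 7 genes still correlated above 0. These correlations ran from 0.477 for Pepck2 and hgo to 0.991 for Pepck1 and Gnmt. All 7 genes lay above the group-housed mean on replicate 2 and below it on replicates 1 and 3, a shared pattern that raises every such correlation. The share of pairs above 0 over all genes is not given here. On the single-housed arrays Gnmt deviated by 0.030 at most, while Pepck2 deviated by 0.40 on replicate 2 and -0.35 on replicate 3. On single-housed replicate 2, 5 of the 7 genes stood above their group mean, and on replicates 1 and 3 it was 1 of 7 each. Of all probe sets tested, 51.6%, 51.2% and 48.2% did so on single-housed replicates 1, 2 and 3.

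**Figure D3:**
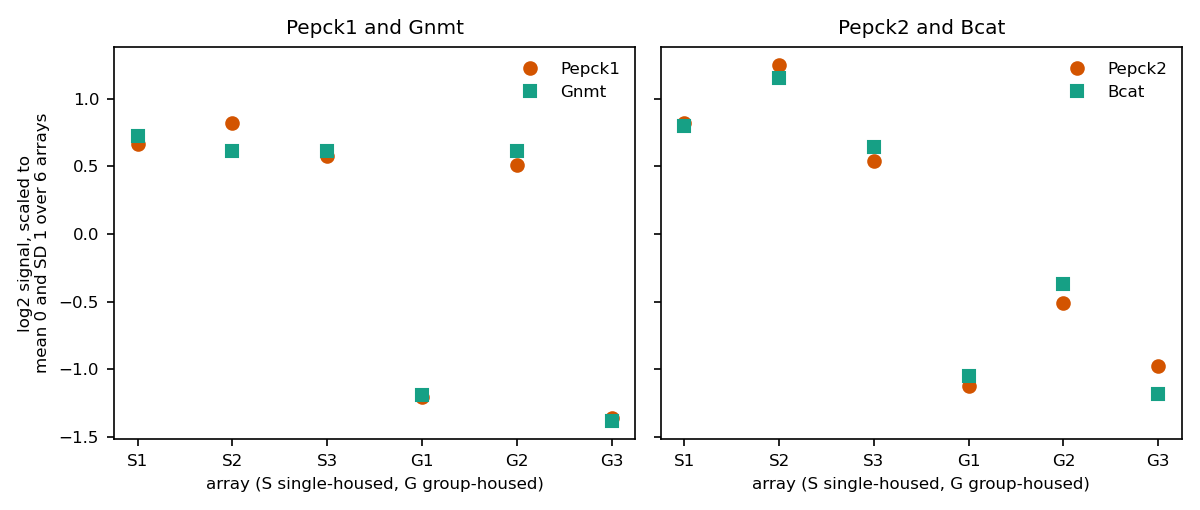
Log2 signal of Pepck1 with Gnmt (left) and of Pepck2 with Bcat (right), scaled to mean 0 and SD 1 over the 6 arrays, single-housed arrays S1 to S3 left of group-housed arrays G1 to G3. The points of a pair lie close together on every array (correlations 0.994 and 0.991), and array G2 sits beside the single-housed arrays for the first pair and nearer the other group-housed arrays for the second.

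Some markers of the head fat body had high values on the same arrays as these genes, and others did not. The summed normalized signal of 16 fat body markers ran from 37172 to 39722 in single-housed heads, against 24868 to 33704 in group-housed heads, and the highest group-housed sum, 33704, was that of replicate 2. Of the 16 markers, 11 had a difference above 0, and their median difference was 0.10. In 5 of the 16 the single-housed arrays all lay above the group-housed ones, as in 6.79% of all genes, and 9 of the 16, or 56.2%, were highest of the group-housed arrays on replicate 2, as were 34.0% of all genes. Fbp2, 1 of the 5, passed the filter on dim probe sets only through its single-housed values. Its mean was 5.01 in single-housed heads and 4.49 in group-housed heads, where the filter cut at 4.69. A linear sum is weighted toward bright probe sets. The markers with the smallest p were Obp99b, fit and Tsf1. Obp99b had 12.36 on group-housed replicate 2 against 11.79 and 12.25 on group-housed replicates 1 and 3. It averaged 12.9 ± 0.081 in single-housed heads (SD, n = 3). The fat body gene fit had 10.55 on group-housed replicate 2 against 9.87 and 8.97 on group-housed replicates 1 and 3, and averaged 11.18 ± 0.111 in single-housed heads (SD, n = 3). Tsf1 had 11.82 against 11.5 and 11.34 on the same arrays, and averaged 11.9 ± 0.06 in single-housed heads (SD, n = 3). Lsp2, a storage protein with a larger p than these, had 12.57 on group-housed replicate 2 against 11.64 and 9.25 on group-housed replicates 1 and 3. It averaged 12.78 ± 0.033 in single-housed heads (SD, n = 3). The lipoprotein gene apolpp was at 0.06 (SE 0.058), NLaz at 0.01 (SE 0.13) and Cyp4g1 at -0.02 (SE 0.56). The yolk protein genes Yp1 and Yp2, at -0.585 (SE 0.38) and -0.475 (SE 0.44), were lowest of the group-housed arrays on replicate 2, with 5.35 and 4.60. Fbp1, another marker, lay below the filter on dim probe sets. The part of fat body content in the differences of the 7 genes was not tested.

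Gut markers were also higher in value in single-housed heads. The sum over 8 of them ran from 3095 to 5480 in single-housed heads, against 2112 to 2633 in group-housed heads, and all 8 had a difference above 0. Of these, Mur29B passed the filter, which cut at 4.69, only through its single-housed values. Its mean was 5.84 in single-housed heads and 4.59 in group-housed heads. On group-housed replicate 2 the gut sum was 2463, between the other group-housed arrays, and 1 of the 8 markers had its highest group-housed value there. That marker was LManII, the brightest of the 8, with 11.21 against 10.68 and 10.93 on group-housed replicates 1 and 3. Jon65Aiii, Jon65Aiv, alphaTry and betaTry were lowest of the group-housed arrays on replicate 2, at 4.61, 4.41, 4.36 and 5.11. The median deviation of the 8 markers from the group-housed mean on that array was -0.681. Muscle markers summed to 7644 to 8604 in single-housed heads, against 9234 to 9751 in group-housed heads. Their median difference was -0.13, but 0.041 with the deposited scaling. Of the 9 muscle markers 8 lay below 0. The sums over 10 hemocyte markers overlapped, at 5511 to 5670 in single-housed heads, against 5560 to 5615 in group-housed heads. Marker by marker, 8 of the 10 lay above 0 with a median of 0.17. The single-housed arrays all lay above the group-housed ones in 5, as in 6.79% of all genes. They all lay below in 1, Fer2LCH, as in 8.54% of all genes. At unadjusted p 0.05 in limma 3 were higher and 0 lower, beside 500 higher and 386 lower of all 9604 genes. Of 11 neuron markers 9 lay below 0, with a median of -0.09 that was 0.089 in the deposited scaling. Of 9 glia markers 8 lay above 0, with a median of 0.08. The part of these tissues in the differences of the 7 genes was not tested.

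**Figure D4:**
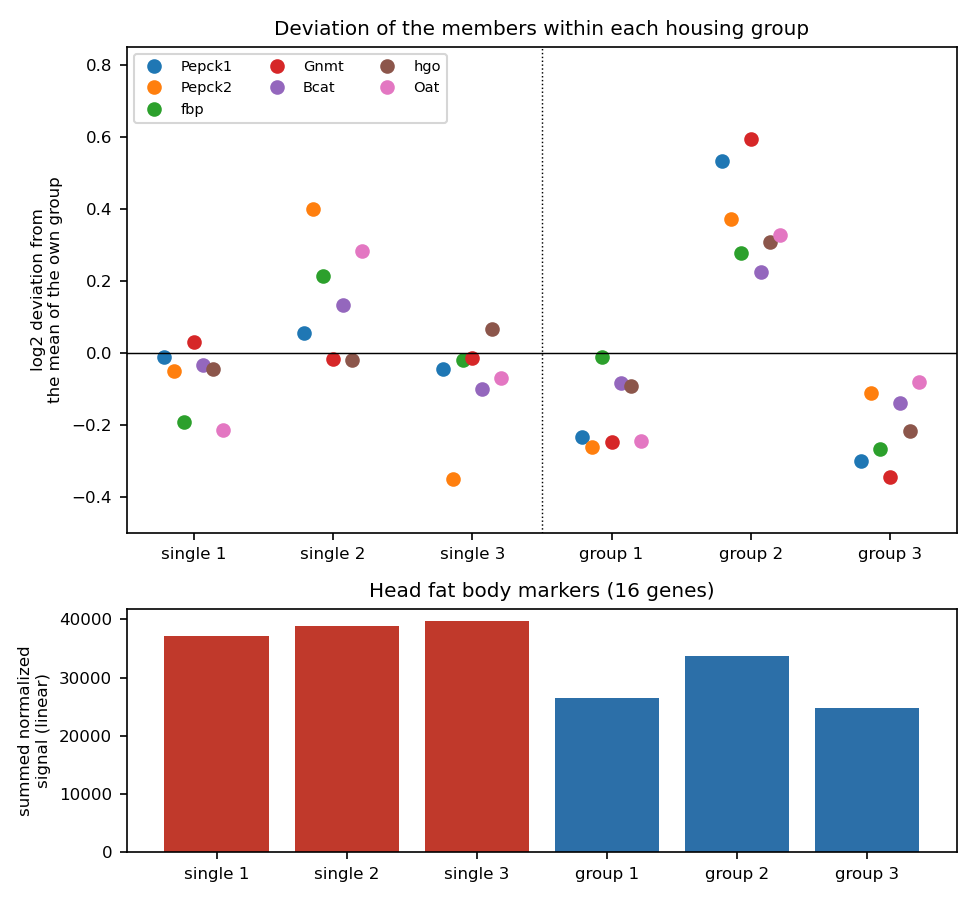
Upper panel, log2 deviation of each of the 7 genes from the mean of its own housing group on each array, single-housed arrays left of group-housed arrays. Lower panel, summed normalized linear signal of 16 head fat body markers on the same arrays. All 7 genes lie above 0 on group-housed replicate 2, and the marker sum of that array, 33704, is the highest of the group-housed arrays.

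The genes around these enzymes were taken from 8 lists of pathway genes, which held 104 genes tested besides the 7. In limma's test, with Benjamini-Hochberg adjustment over all probe sets, 0 of the 104 passed adjusted p 0.05. The background was 2 of 13138 probe sets, or 0.0152%. At unadjusted p 0.05 there were 20 of the 104 higher and 6 lower in single-housed heads, beside 500 higher and 386 lower of all 9604 genes. The balance of directions depended on the scaling of the arrays, with 41 higher and 0 lower at unadjusted p 0.05 for the deposited scaling and 22 higher and 2 lower for median centring. Among all probe sets at unadjusted p 0.05, the share that was higher was 55.5% here, 94.1% for the deposited scaling and 74.9% for median centring. The deposited scaling also moved the median over all genes to 0.10. Of the 104 genes 60.6% were highest of the group-housed arrays on replicate 2, beside 34.0% of all genes.

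Methionine, glycine and serine metabolism, the surroundings of Gnmt, had the highest median of the 8 lists. Of 17 genes tested, 16 had a difference above 0 and the median was 0.39, beside -0.02 for all genes, of which 45.6% lay above 0. By limma 0 passed the threshold, with a smallest adjusted p = 0.431, while unadjusted p 0.05 was passed by 6 genes, all higher. The 4 with the smallest p were Tdh, aay, Cth and Ahcy. Tdh, threonine dehydrogenase, had values of 8.88, 9.24 and 8.86 in single-housed heads, against 8.47, 8.70 and 8.36 in group-housed heads, a difference of 0.48 (SE 0.13) with groups that did not overlap. The gene aay, which encodes the phosphoserine phosphatase of serine synthesis, was at 0.66 (SE 0.21), and Cth, the cystathionine gamma-lyase of cysteine synthesis, at 0.49 (SE 0.16). Ahcy, which hydrolyses the S-adenosylhomocysteine that Gnmt releases, was at 0.39 (SE 0.16). Leaving out group-housed replicate 3 brought aay to 0.408.

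On group-housed replicate 2, 13 of these 17 genes had their highest group-housed value. Without that array the median of the list was 0.56, and 2 genes passed the threshold, both of folate-bound one-carbon metabolism and both named here after their values were seen. Shmt, serine hydroxymethyltransferase, had values of 10.44, 10.86 and 10.64 in single-housed heads, against 9.64, 10.78 and 9.87 in group-housed heads. Its difference was 0.55 (SE 0.26, limma adjusted p = 0.625) over all arrays, and 0.89 (SE 0.13) without group-housed replicate 2. The limma adjusted p was 0.0427 without that array and 0.138 to 0.969 under the other alternatives, and the difference was 0.32 without group-housed replicate 1. Nmdmc, a methylenetetrahydrofolate dehydrogenase, had 9.75, 9.93 and 9.70 in single-housed heads, against 8.54, 10.19 and 8.10 in group-housed heads. Its difference was 0.85 (SE 0.44, limma adjusted p = 0.657) over all arrays, and 1.48 (SE 0.14) without that array. Its limma adjusted p was 0.0166 without it and 0.206 to 0.969 under the other alternatives, and the difference was 0.437 without group-housed replicate 3. On both genes replicate 2 lay within or above the range of the single-housed arrays. Leaving it out was therefore bound to widen the difference and to narrow the group-housed spread. Over all probe sets 47 passed without that array, against 2 with all arrays. The calls of Shmt and Nmdmc without it are descriptions.

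Branched-chain amino acid breakdown, the route that Bcat opens, had a median of 0.21, with 9 of 12 genes above 0. By limma 0 passed, with a smallest adjusted p = 0.561, and 4 genes, all higher, had an unadjusted p under 0.05. The 4 with the smallest p were all small in size. CG6638 was at 0.30 (SE 0.11), Mccc2, a subunit of methylcrotonyl-CoA carboxylase, at 0.30 (SE 0.12), Acat1 at 0.29 (SE 0.13) and BckdhA, a subunit of the branched-chain ketoacid dehydrogenase, at 0.23 (SE 0.099). BckdhB, the partner subunit, was at -0.12 (SE 0.079), or 0.068 with the deposited scaling, and is named after its values were seen. Without group-housed replicate 1 Mccc2 was at 0.189 and BckdhA at 0.151, and without single-housed replicate 2 Acat1 was at 0.183. Bcat's own difference of 0.79 lay above those of all 12 genes, of which Mccc2 had the highest. Since Bcat was chosen on this contrast, nothing is read from this order.

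The remaining genes listed with gluconeogenesis, some of them for steps shared with glycolysis, had a median of 0.09, or 0.28 with the deposited scaling. Of these 16 genes 13 lay above 0. The limma threshold was passed by 0 of them and unadjusted p 0.05 by 3, all higher. The malic enzyme gene Men had a difference of 0.42 (SE 0.13). This became 0.57 without group-housed replicate 2. Its limma adjusted p was 0.0423 without that array and 0.0611 to 0.969 under the other alternatives. Gapdh1 was at 0.18 (SE 0.057), Pgk at 0.21 (SE 0.070) and PCB, the pyruvate carboxylase that supplies oxaloacetate to the carboxykinases, at 0.22 (SE 0.10). PCB was at 0.10 without group-housed replicate 1. The glucose-6-phosphatase gene G6P, named after its values were seen, had 6.08, 6.33 and 5.69 in single-housed heads, against 5.96, 6.64 and 6.19 in group-housed heads. These values overlap widely, with a difference of -0.23 (SE 0.21), which was -0.046 when group-housed replicate 2 was left out and -0.384 when replicate 1 of that group was. Of 5 genes for steps special to glycolysis or pyruvate oxidation, 0 passed in limma and 1 had an unadjusted p under 0.05. That gene was Pdk, pyruvate dehydrogenase kinase, which restrains the entry of pyruvate into the citric acid cycle, at 0.27 (SE 0.073). Next by p came Pfrx at -0.15 (SE 0.11), Hex-A at -0.07 (SE 0.098) and Hex-C at 0.04 (SE 0.14). No direction is given for these 3, since Pfrx was at -0.003 and Hex-A at 0.107 with the deposited scaling and Hex-C at -0.074 without group-housed replicate 1.

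Tyrosine, phenylalanine and tryptophan metabolism, the surroundings of hgo, was evenly divided. Of 12 genes, 6 lay above 0, with a median of -0.005 that turned to 0.163 with the deposited scaling, and 0 passed in limma or at unadjusted p 0.05. The smallest p belonged to Dhpr at 0.13 (SE 0.082), KFase at -0.19 (SE 0.13), Ddc at -0.14 (SE 0.10), or 0.047 with the deposited scaling, and Kyat at 0.09 (SE 0.081). The tyrosine enzymes that act before hgo, named after their values were seen, were likewise near 0, with Tat, a tyrosine aminotransferase, at 0.03 (SE 0.077) and Hpd, a hydroxyphenylpyruvate dioxygenase, at 0.05 (SE 0.091). Faa, which acts after hgo, was at 0.10 (SE 0.12). Tat was at -0.021 without single-housed replicate 3 and Hpd at -0.016 without group-housed replicate 3, while KFase ranged from -0.322 to -0.061 over the alternatives.

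For arginine, proline, ornithine and glutamate, around Oat, 5 of 15 genes lay above 0. Their median of -0.05 became 0.091 in the deposited scaling. By limma 0 passed, and of the 3 genes with an unadjusted p under 0.05 there was 1 higher and 2 lower. Odc1, the ornithine decarboxylase that draws on the same substrate as Oat, had 6.80, 7.05 and 6.996 in single-housed heads, against 7.37, 7.22 and 7.58 in group-housed heads. The groups did not overlap, and the difference was -0.44 (SE 0.12, limma adjusted p = 0.431). P5cr, a pyrroline-5-carboxylate reductase of proline synthesis, was at 0.28 (SE 0.10), CG8745 at -0.29 (SE 0.11) and slgA, the proline dehydrogenase, at -0.16 (SE 0.070). With the deposited scaling slgA was at 0.028 and CG8745 at -0.120. Trehalose and glycogen genes had 5 of 8 above 0 and a median of 0.02, or 0.19 with the deposited scaling, with 0 passed in limma or at unadjusted p 0.05. The trehalose synthesis gene Tps1 was at 0.09 (SE 0.11), Tret1-2 at 0.20 (SE 0.15), Glyp at 0.12 (SE 0.11) and Glys at -0.05 (SE 0.090). Of these, Glys was at 0.134 with the deposited scaling, Tps1 at -0.009 without group-housed replicate 1, Glyp at 0.015 without group-housed replicate 3 and Tret1-2 at 0.104 without single-housed replicate 3.

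Hormones and regulators of fasting metabolism went both ways, with 10 of 19 genes above 0 and a median of 0.01. By limma 0 passed, and 9 genes, 5 of them higher, had an unadjusted p under 0.05. Akh, the adipokinetic hormone that mobilises stores, had values of 9.91, 9.73 and 9.68 in single-housed heads, against 9.10, 9.35 and 9.11 in group-housed heads. Its difference was 0.59 (SE 0.098, limma adjusted p = 0.158), and 0.675 without group-housed replicate 2. Over the alternatives its limma adjusted p ran from 0.0346, without that array, to 0.649. Ilp5, which encodes an insulin-like peptide, had 9.58, 9.67 and 9.48 in single-housed heads, against 8.54, 9.04 and 8.26 in group-housed heads, a difference of 0.97 (SE 0.17, limma adjusted p = 0.178), and 1.18 without that array. Over the alternatives its limma adjusted p ran from 0.00442, in the deposited scaling, to 0.777, and it was 0.0166 without group-housed replicate 2. For both hormones the groups did not overlap and replicate 2 was again the highest group-housed array. The transcription factor gene cbt was at -0.39 (SE 0.10) and bigmax, a partner in sugar sensing, at -0.26 (SE 0.084). In the deposited scaling cbt was at -0.198 and bigmax at -0.136. The widest difference of the list, 1.49 (SE 0.56, limma adjusted p = 0.561), was that of tobi, an alpha-glucosidase gene known as a target of insulin signalling and named after its values were seen. It had 10.58, 10.91 and 11.04 in single-housed heads, against 9.34, 10.75 and 7.97 in group-housed heads, so that replicate 2 again lay among the single-housed arrays. The value depended on single arrays, being 2.19 when group-housed replicate 2 was left out and 0.804 when replicate 3 of that group was. The transcription factor foxo, known to act under low insulin signalling, was at 0.11 (SE 0.13) and is likewise named after its values were seen. In the same list InR was at -0.46 (SE 0.15) and AkhR at 0.35 (SE 0.12), each without overlap of the groups. Both had a smaller p than tobi and foxo, and both are named after their values were seen. Leaving out group-housed replicate 1 brought foxo to 0.023.

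**Figure D5:**
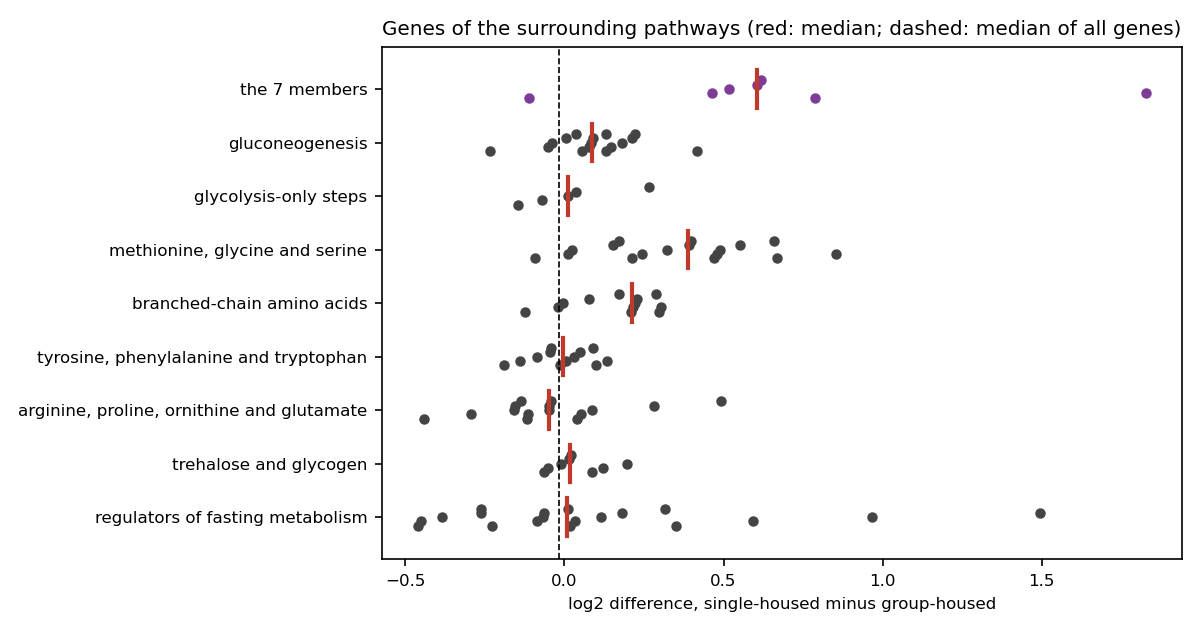
Log2 difference, single-housed minus group-housed, for the 7 genes and for each gene of 8 pathway lists, 1 point per gene, with the list median as a red bar and the median of all 9604 genes as a dashed line. The list of methionine, glycine and serine metabolism has the highest median of the 8 lists, 0.39, and no gene of the lists passed the threshold over all probe sets.

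The genes whose values over the 6 arrays were most like the mean scaled profile of the 7 were taken from 1072 genes with an SD of at least 0.3. They were CG10184 (Pearson correlation 0.992), CG14075 and Ugt37A3 (0.988 each), hoka and CG31075 (0.984 each) and Gcat (0.983). Gcat, glycine C-acetyltransferase, works next to Tdh in the breakdown of threonine to glycine. It had values of 7.74, 8.14 and 7.93 in single-housed heads, against 6.85, 7.56 and 6.83 in group-housed heads, a difference of 0.86 (SE 0.20). The groups did not overlap, and replicate 2 was the highest group-housed array. Ugt37A3 is a UDP-glycosyltransferase, and its difference was 0.89 (SE 0.27). Because these genes were picked for their likeness to genes chosen on this contrast, such differences and the place of replicate 2 follow from the choice.

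On deviations from the group means, among 2742 genes with a residual SD of at least 0.2, the closest were CG17036 (0.995), cort (0.992), Cyp6t1 (0.991), CG7829 (0.990), CG31937 and CG10959 (0.989 each). Their values on group-housed replicate 2 were high, which follows from how they were picked. Their differences between the groups ranged from -0.047 for CG7829 to 0.47 for the P450 gene Cyp6t1. CG7829 had 9.49, 9.74 and 9.58 in single-housed heads, against 9.46, 10.04 and 9.45 in group-housed heads, so that, as for hgo, replicate 2 was the highest of the 6 arrays.

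The neighbours on the chromosome were also read. The nearest tested genes on either side of the 7 genes, 12 in all, had a median difference of 0.04. Of these, 1 had single-housed arrays all above group-housed ones, as had 6.79% of all genes, and 2 had them all below, as had 8.54%. The threshold in limma was passed by 0 of the 12, as was unadjusted p 0.05. The genes that flank the carboxykinase pair, CG43066 and Rgk2, were at -0.09 (SE 0.15) and 0.31 (SE 0.15).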

How the data were processed

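The 6 arrays were measured from 20 pooled male heads each. The authors deposited linear signal intensities, 1 per probe set and array, from biotin-labelled RNA hybridised after standard Affymetrix labelling, per the labels. How probes were summarised, corrected for background and scaled is not given in the sources used here. Of 18952 probe sets, 183 controls were left out. By the platform annotation 13647 probe sets had 1 gene, 402 several and 4720 none, and 13544 of the first kind matched the RefSeq gene table.

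Values were taken as log2(intensity + 16). Array medians differed by 0.242 on that scale, above a limit of 0.2, and quantile normalization was therefore applied. A filter then removed the dimmest 30% of probe sets by mean, leaving 13138. The groups were set against each other in limma (version 3.58.1, under R 4.3.3; lmFit, eBayes with an intensity trend, 2-sided, Benjamini-Hochberg over all probe sets, threshold 0.05). A p-value sets the difference against the spread between the 3 arrays per group, which limma moderates with that of all probe sets. Where a gene had several probe sets, the one with the highest mean stood for it.

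The members and lists were chosen with earlier results of these data known. Older symbols were updated through the RefSeq table, and dco and Nfs1, which are other genes than those meant, were taken out. Genes named are the 7, up to 4 per pathway list with the smallest p, those most like the 7, neighbours, markers, and genes said to be named after their values were seen. Alternatives comprised arrays left as deposited, centring on the median, a pseudocount of 1 or 64, a filter at 50% or none, eBayes that was robust (statmod 1.5.0) or had no trend, weights per array, a block for the replicate number, and each array left out in turn.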

Additional observations from a re-analysis of the deposited data

How the results depend on the processing

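The number of probe sets past adjusted p 0.05 in limma, 2 with all arrays, was 78 with the deposited scaling, 11 with median centring, 5 with array weights, 1 each for the pseudocount 64, the filter at 50% and no filter, 0 if eBayes had no trend (985 at unadjusted p 0.05), and 0 to 47 with 1 array left out. It was 47 without group-housed replicate 2, 7 and 9 without replicates 1 and 3 of that group, and 6, 1 and 0 without single-housed replicates 1, 2 and 3 (1045 at unadjusted p 0.05 for the last). Pathway genes past the threshold, 0 with all arrays, were 3 with the deposited scaling (aay, Akh and Ilp5) and 0 to 5 with 1 array left out. The 5 were Akh, Ilp5, Men, Nmdmc and Shmt, without group-housed replicate 2. That array was followed because of its values in these same data, so the calls without it are descriptions. The replicate number does not pair the arrays by the labels, and same-numbered arrays correlated at 0.032, 0.114 and 0.329 on their deviations. With the replicate block 32 probe sets and 1 pathway gene, Ilp5, passed, and 2 of 6 arrays correlated best with their own number.

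The median difference of the 7 genes was 0.44 to 0.883 with 1 array left out, the highest being that without group-housed replicate 2 and the lowest that without replicate 3 of the same group. The number with single-housed arrays all above group-housed ones was 4, beside 6.79% of all genes, and 3 to 6 over the 16 alternatives. It was 6 with the deposited scaling, which raised the differences of all genes, and without group-housed replicate 2, which left fewer arrays to separate. The share over all genes under the alternatives is not given here, so nothing is read from these counts. Gcat passed with the deposited scaling (0.985), the replicate block and without group-housed replicate 2 (1.10). Since Gcat was picked for its likeness to the 7 genes, nothing is read from these calls. For hgo the sign turned to 0.063 with the deposited scaling and to 0.043 without group-housed replicate 2, and its lowest value was -0.219, in the absence of group-housed replicate 3. Replicate 2 was the highest group-housed array for 7 of 7 genes under each alternative that kept all 3 group-housed arrays. The causes were not tested. The number of arrays limits the precision.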
